A study of Mus musculus with 8 samples.

Results

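The unfolded protein response and the integrated stress response were followed at the level of 40 genes in RAW264.7 cells, a mouse macrophage line transformed by Abelson leukaemia virus. The genes were chosen by name, as rows of the deposited expression table whose gene symbol equals a listed member, and the rule itself uses no expression value. All 40 were present among the 10639 genes of the table, and all 40 passed the filter on low values. Of these, 24 belong to the arm run by IRE1, XBP1 and ATF6, and 16 to the arm run by PERK and ATF4. All 8 libraries came from wild-type cells, with 2 libraries in each of 4 groups. One group was left untreated, another received lipopolysaccharide (LPS) at 50 ng/mL, another anti-CD36 antibodies at a 1:100 dilution, and the last LPS together with anti-CD36 antibodies (here the combination). The 3 treatments lasted 12 h. The labels of the combination state no dose, those of the untreated cells state no time, and no group with a control antibody was analysed here. LPS is the bacterial outer membrane component sensed by TLR4, and CD36 is a scavenger receptor for oxidized lipoproteins and fatty acids. Per the series title, the study asked how gene expression differs between these treatments.

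Expression was given as FPKM, fragments scaled to transcript length and to the reads of the library, so levels can be compared between genes per unit of length. Depth recovered from the steps in the low values was 47900000 to 71700000 reads per library, and the smallest read count behind a value of these 40 genes was 251. Over the 40 genes, the SD of the log2 difference between the replicates was 0.16 in untreated cells, 0.16 with LPS, 0.18 in the combination and 0.35 with anti-CD36, where replicate 1 also had 15.8% of its summed FPKM in 13 mitochondrial genes against 3.28% to 6.62% in the other libraries. Of 10 macrophage markers, 9 were in the table and all 9 were at 1 FPKM or more in every library, with sums of 3634 to 5406. Of the markers of other cells, 1 of 8 for T and NK cells, 1 of 5 for B cells, 1 of 6 for plasma cells and 1 of 6 for granulocytes were in the table, with sums of at most 5.03 FPKM, and none for fibroblasts, epithelial cells or endothelial cells. No gene of the table was at 0 in any library, so a marker at 0 in a single library could be missing from it. The 40 genes held 1.24% and 1.27% of the summed FPKM in the untreated libraries, 1.13% and 1.11% with anti-CD36, 0.97% and 0.97% with LPS, and 0.86% and 0.89% in the combination. In bulk libraries, fewer expressing cells and less RNA per cell cannot be told apart.

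As background, proteins of the secretory pathway fold in the endoplasmic reticulum (ER), and unfolded protein there is sensed by 3 membrane proteins. IRE1 (gene Ern1) splices the mRNA of the transcription factor XBP1, ATF6 is cut in the Golgi to release a transcription factor, and both raise chaperones and the machinery of ER-associated degradation. PERK (gene Eif2ak3) phosphorylates the translation factor eIF2, as do related kinases such as the amino acid sensor GCN2 (gene Eif2ak4), and this lowers general translation while ATF4 is translated more. ATF4 in turn drives CHOP (gene Ddit3), the eIF2 phosphatase subunit Ppp1r15a and enzymes of amino acid synthesis. FPKM values report neither XBP1 splicing, ATF6 cleavage nor phosphorylation.

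Promoters are shown for members that carry the DNA elements through which these factors are known to act. RefSeq promoter windows (build GRCm38.p6, 250 bases before to 50 after the transcription start) were found for 35 of the 40 members. Those not matched were Atf6, Derl1, Hyou1, Manf and Ppp1r15b. The ER stress response element, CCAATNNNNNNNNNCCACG on either strand, was in 20.5% of the members' 39 windows (some genes have more than 1) and in 0.119% of all 32851 windows. The 8 genes with it were Hspa5, Hsp90b1 (with 2 matches), Calr, Canx, Pdia6, Dnajc3, Creld2 and Syvn1. The shorter second element, ATTGGNCCACG, was in Herpud1 and Dnajb11, or 5.13% of the members' windows against 0.0365% of all. TGATGNAA, the core of the amino acid response element bound by ATF4, was in Asns, Chac1, Herpud1 and Trib3, or 10.3% against 3.97%. TGACG, the core shared by ATF6 and other bZIP factor sites, was in 33.3% of the members' windows, near the 32.7% found in windows of the genes in the expression table and above the 20.8% of all windows. The matches in Dnajb11 (ATTGGNCCACG) and Trib3 (TGATGNAA) lie after the start. None of the members' matches overlapped a match of another motif. A match describes letters in a window and is not evidence of binding.

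The stretches below lie upstream of the start, are written 5′ to 3′ on the gene's own strand, and have the match in capitals. They show 1 chaperone gene that did not pass the test with LPS (Hspa5), 2 chaperone or co-chaperone genes that fell (Calr, Dnajc3), 1 degradation gene that fell (Herpud1, second element) and 1 ATF4-arm gene that rose (Asns, amino acid response element). In Calr the element lies on the opposite strand, so its capitals read as the reverse complement. The coordinates are chr2:34771995-34772073 for Hspa5, chr8:84847045-84847123 for Calr, chr14:118937797-118937875 for Dnajc3, chr8:94386347-94386417 for Herpud1 and chr6:7693210-7693262 for Asns, where Calr and Asns are on the minus strand.
Hspa5: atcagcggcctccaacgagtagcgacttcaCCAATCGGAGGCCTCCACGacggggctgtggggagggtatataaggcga
Calr: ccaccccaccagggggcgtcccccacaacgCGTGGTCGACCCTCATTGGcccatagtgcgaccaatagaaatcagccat
Dnajc3: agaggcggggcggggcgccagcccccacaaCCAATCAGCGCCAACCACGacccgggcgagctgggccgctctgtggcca
Herpud1: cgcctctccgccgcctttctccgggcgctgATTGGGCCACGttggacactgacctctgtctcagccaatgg
Asns: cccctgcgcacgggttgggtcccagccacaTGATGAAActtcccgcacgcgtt

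With LPS, the PERK and ATF4 arm divided between genes that rose and genes that fell, and the calls in the IRE1, XBP1 and ATF6 arm were mostly falls. Ddit3, Asns, Ppp1r15a, Selenos, Mthfd2, Atf4 and Eif2s1 rose. Xbp1, Calr, Shmt2, Hyou1, Dnajb11, Eif2ak3, Herpud1, Dnajc3, Pdia4, Pdia3, Eif2ak4 and Ppp1r15b fell. Calls needed an adjusted p under 0.05 (Benjamini-Hochberg over the 10289 genes tested) from limma on log2(FPKM + 1), and differences below are on that scale with the SE of the fit. Of the 40 genes, 7 were called higher (17.5%) and 12 lower (30%), where 17% of all genes tested were called higher and 37.5% lower. The shares of the set were thus close to those of the whole table in the higher direction and below them in the lower direction. The IRE1, XBP1 and ATF6 arm had 4.17% called higher and 33.3% lower, both below the shares of the table. In the PERK and ATF4 arm, 37.5% were called higher and 25% lower. The median difference was -0.13 over the 40 genes and -0.19 over all genes.

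The split between the arms depended in part on how libraries were scaled. As deposited, the IRE1, XBP1 and ATF6 arm had 1 gene called higher, 8 lower and a median difference of -0.26, and the PERK and ATF4 arm had 6 higher, 4 lower and a median of 0.38. Median-ratio size factors moved the median of all genes from -0.19 to 0.01 and gave 3 higher, 5 lower and a median of -0.03 in the first arm, and 9 higher, 2 lower and a median of 0.58 in the second. Over the 40 genes the split then turned from 7 higher and 12 lower to 12 higher and 7 lower, beside 2666 higher and 2708 lower among all genes. Quantile normalization gave 1 higher, 11 lower and a median of -0.33 in the first arm. In the second arm it gave 8 higher, 3 lower and a median of 0.41, beside 2459 higher and 3015 lower among all genes. Single libraries mattered too, with 4 higher and 8 lower without untreated replicate 2, 4 and 9 without LPS replicate 2, and 5 and 7 without LPS replicate 1. Calls of 11 genes passed in each of the alternatives tried for them. These were Ddit3, Asns, Ppp1r15a and Selenos, called higher, and Xbp1, Calr, Dnajb11, Dnajc3, Hyou1, Eif2ak3 and Shmt2, called lower. The p-values rest on 2 libraries per group, which the labels do not describe as separate cultures, so they reflect only how far these libraries differ, and that spread may be technical.

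**Figure D1:**
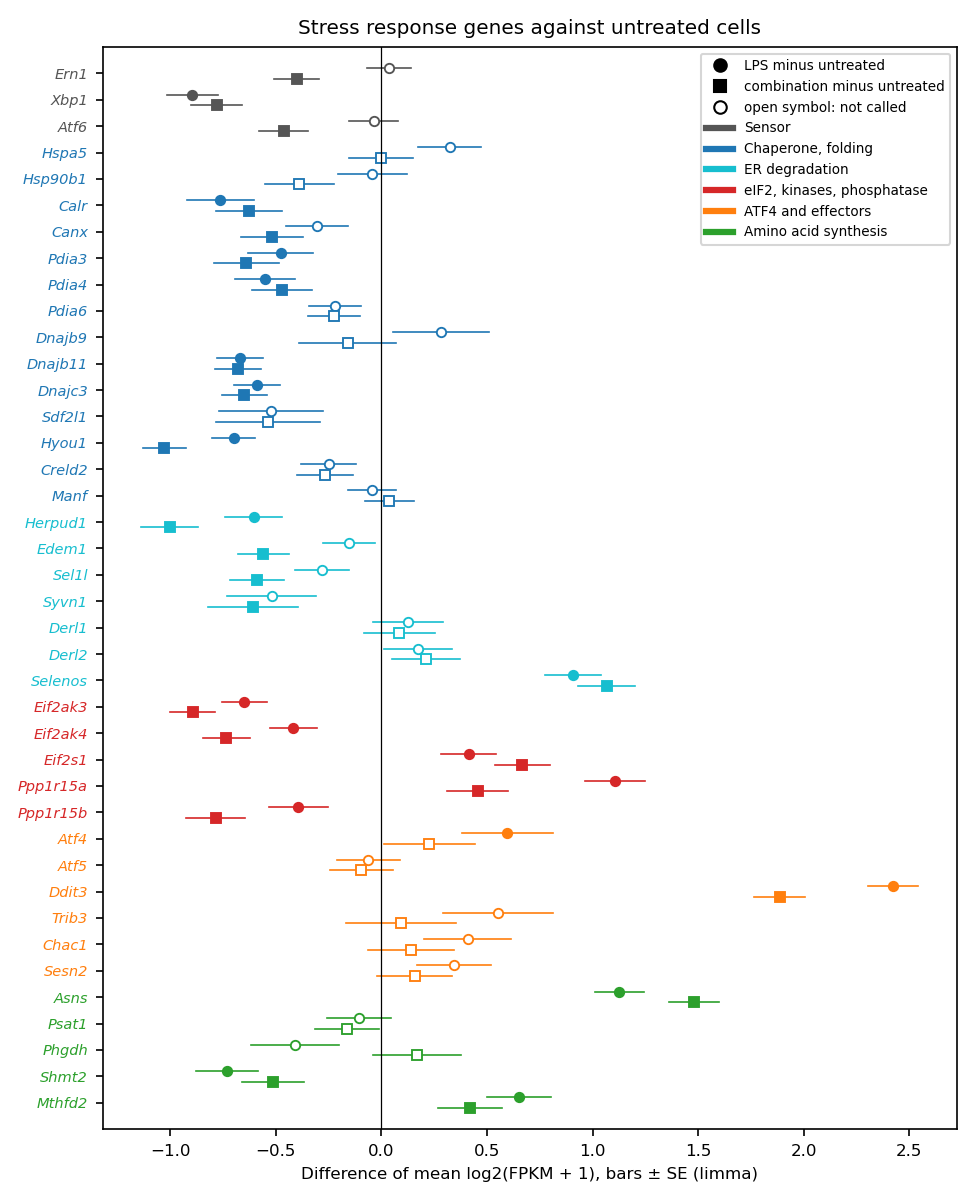
Difference of mean log2(FPKM + 1) against untreated cells for the 40 genes, for LPS (circles) and the combination (squares), with bars of 1 SE from limma and colours by role. Filled symbols passed the test. Ddit3 lies farthest to the right at 2.42 with LPS, and most chaperone genes lie left of 0.

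Of Ern1, Xbp1 and Atf6, Xbp1 was called with LPS (the gene of the sensor PERK, Eif2ak3, is given with the eIF2 step). Xbp1 (chr11:5520659-5525893, plus strand, GRCm38), the target of IRE1 splicing, was at 92.7 and 84.0 FPKM in untreated cells, 99.5 and 99.0 with anti-CD36, 43.9 and 50.3 with LPS, and 52.6 and 49.5 in the combination. Both groups that received LPS lay below both that did not, with no overlap. The LPS mean was 0.53 times the untreated mean (log2 difference -0.89 ± 0.12 SE, limma adjusted p = 0.0007). Ern1 and Atf6 had mean FPKM of 3.63 and 24.8 in untreated cells and differed by 0.04 (95% interval -0.21 to 0.28) and -0.04 (-0.31 to 0.23) with LPS, with overlapping libraries.

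Of the 14 ER chaperones and folding enzymes, 6 fell with LPS (42.9%, near the 37.5% of all genes called lower), none rose and 8 did not pass. The median difference was -0.39 as deposited and -0.16 under size factors. Under quantile normalization it was -0.58, with 9 of the 14 called lower, where 29.3% of all genes were. Calr, which encodes the lectin chaperone calreticulin, was at 492.5 and 492.2 FPKM in untreated cells, 295 and 285 with LPS, 580.0 and 460.7 with anti-CD36 and 319 and 318 in the combination. The LPS libraries were the lowest and the anti-CD36 libraries spanned the untreated ones. The LPS difference was -0.76 ± 0.16 (adjusted p = 0.00493). Hyou1, a nucleotide exchange factor and chaperone of the ER, was at 85.5 and 84.0 FPKM in untreated cells, 52.3 and 51.4 with LPS, 50.1 and 48.0 with anti-CD36 and 41.6 and 40.5 in the combination. Every treated library lay below both untreated ones, and the LPS difference was -0.70 ± 0.10 (adjusted p = 0.00097).

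The co-chaperones Dnajb11 and Dnajc3, which serve BiP, also fell with LPS. Dnajb11 went from 73.9 and 72.1 FPKM to 46.5 and 44.5, and Dnajc3 from 19.0 and 20.8 to 13.1 and 12.6. Their differences were -0.67 ± 0.11 (adjusted p = 0.00165) and -0.59 ± 0.11 (adjusted p = 0.00269). The disulfide isomerases Pdia4 (-0.55 ± 0.14, adjusted p = 0.0129) and Pdia3 (-0.48 ± 0.15, adjusted p = 0.0333) fell as well, and both lost the call under size factors.

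Hspa5, which encodes BiP, the main ER chaperone and a standard readout of this response, was not called as deposited. It was at 356 and 339.6 FPKM in untreated cells, 470.4 and 403 with LPS, 337 and 377 with anti-CD36 and 337 and 358 in the combination. The LPS libraries were the highest of the 8. The LPS difference was 0.32 ± 0.15 (95% interval -0.03 to 0.68, adjusted p = 0.105), and its sign and call depended on scaling. It was 0.56 under size factors (adjusted p = 0.0185), 0.60 with the length trend removed (adjusted p = 0.00795) and -0.15 under quantile normalization (adjusted p = 0.426). Hsp90b1, the ER member of the HSP90 family, differed by -0.04 with LPS (95% interval -0.42 to 0.34). The other members that did not pass were Canx at -0.31, Pdia6 at -0.22, Creld2 at -0.25, Manf at -0.04, Sdf2l1 at -0.52 and Dnajb9 at 0.28. Dnajb9, a regulator of IRE1, had the lowest level of the group, with means of 4.62 FPKM in untreated cells and 5.78 with LPS.

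In ER-associated degradation, which returns misfolded proteins to the cytosol for the proteasome, 1 of 7 genes rose with LPS and 1 fell. Selenos, a selenoprotein of the degradation complex, was at 42.5 and 35.9 FPKM in untreated cells, 38.0 and 43.2 with anti-CD36, 76.4 and 71.9 with LPS and 79.0 and 86.9 in the combination. The groups with LPS did not overlap those without it, and the difference was 0.91 ± 0.13 (adjusted p = 0.001). Herpud1, a membrane organiser of the same complex, was at 36.3 and 37.2 FPKM in untreated cells, 22.8 and 24.9 with LPS, 36.1 and 28.3 with anti-CD36 and 17.7 and 18.0 in the combination. It differed by -0.61 ± 0.13 with LPS (adjusted p = 0.00675), and the call was lost under size factors at -0.37. Syvn1, the ubiquitin ligase of the complex, was at -0.52 (adjusted p = 0.071), its adaptor Sel1l at -0.28, the mannosidase-like Edem1 at -0.15, and Derl1 and Derl2, candidates for the exit channel, at 0.13 and 0.17.

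**Figure D2:**
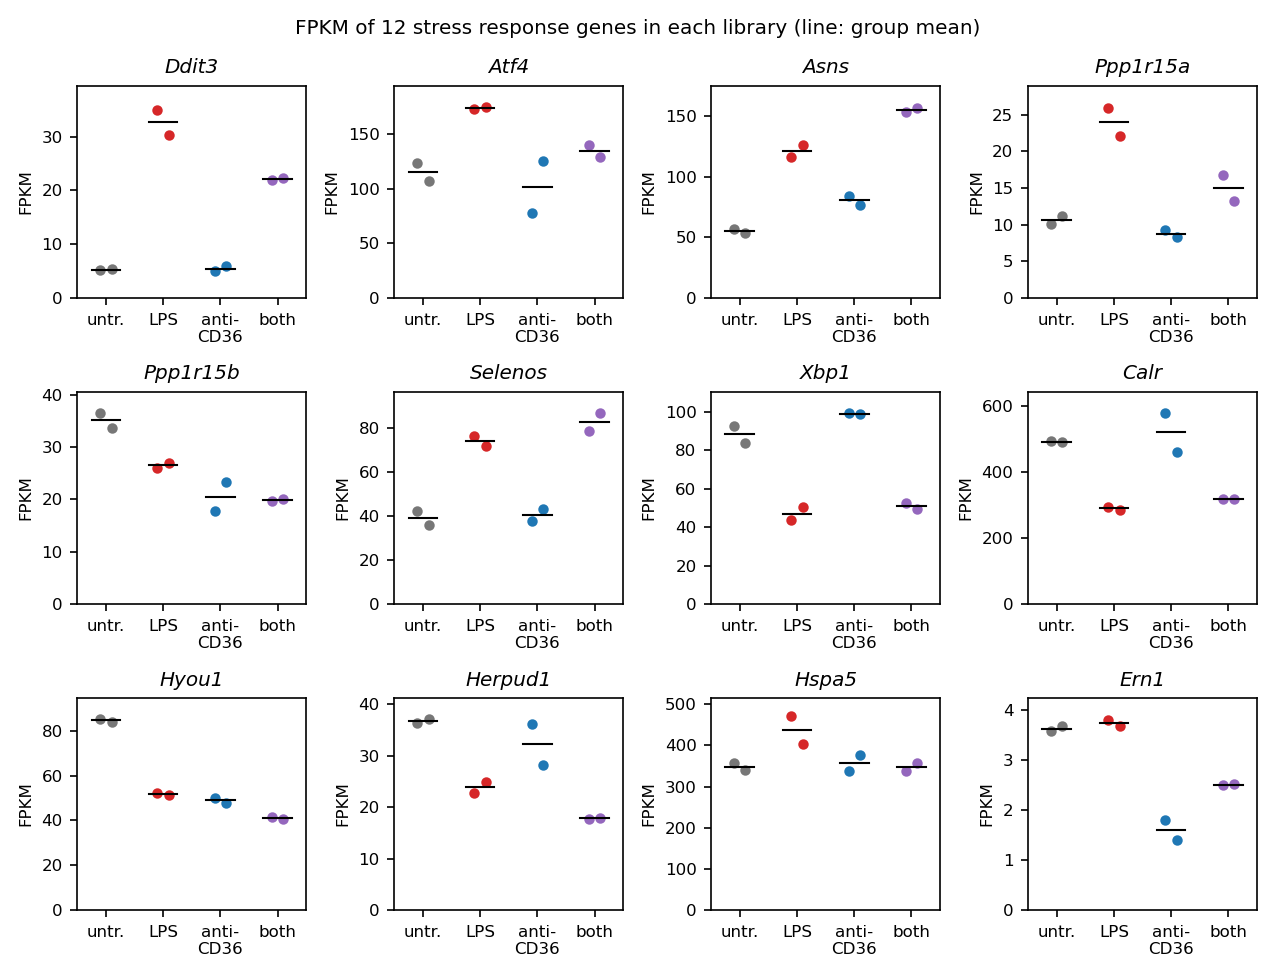
FPKM of 12 of the genes in each of the 8 libraries (points) with the group mean (line), with axes from 0. Ddit3, Asns and Selenos are high in both groups with LPS, Xbp1 and Calr are low in both, and Ern1 is lowest with anti-CD36 alone.

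All 5 genes of the eIF2 step passed the test with LPS, 2 higher and 3 lower. Of all genes tested, 17% were called higher and 37.5% lower. Ppp1r15a (chr7:45522916-45526268, minus strand), the inducible subunit that directs a phosphatase to eIF2, was at 10.1 and 11.2 FPKM in untreated cells, 9.23 and 8.35 with anti-CD36, 25.9 and 22.1 with LPS and 16.7 and 13.3 in the combination. The 4 groups did not overlap, with LPS highest and anti-CD36 lowest. The LPS mean was 2.27 times the untreated mean (1.11 ± 0.14, adjusted p = 0.00057). Ppp1r15b, the constitutive subunit, went the other way, from 36.6 and 33.7 FPKM to 26.0 and 27.0 (-0.39 ± 0.14, adjusted p = 0.0452), a call lost under size factors. The kinase genes Eif2ak3 and Eif2ak4 differed by -0.65 ± 0.11 (adjusted p = 0.00172) and -0.42 ± 0.11 (adjusted p = 0.0146). Eif2ak3, which encodes PERK, was at 5.58 and 5.86 FPKM in untreated cells and 3.12 and 3.45 with LPS. Eif2s1, the alpha subunit of eIF2 that the kinases phosphorylate, rose by 0.41 ± 0.13 (adjusted p = 0.0288).

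Atf4 and its effectors had the largest change with LPS, in Ddit3, and several smaller differences that did not pass. Ddit3 (chr10:127290774-127296288, plus strand), which encodes the stress factor CHOP, was at 5.18 and 5.35 FPKM in untreated cells, 4.96 and 5.89 with anti-CD36, 35.0 and 30.3 with LPS and 22.0 and 22.3 in the combination. The LPS libraries were the highest, the combination libraries lay between, and untreated and anti-CD36 libraries overlapped. The LPS mean was 6.20 times the untreated mean (2.42 ± 0.12, adjusted p = 8.8e-06). The annotation holds overlapping gene models under the name Ddit3, and reads on the opposite strand in Mars could not be told apart without knowing strand use, so its values are uncertain to that extent. Atf4 itself went from 123 and 107 FPKM to 174 and 175 (0.60 ± 0.21, adjusted p = 0.0474), a call that passed in 9 of 19 alternatives.

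Trib3, Chac1 and Sesn2, which are further ATF4 targets, had both LPS libraries above the untreated ones without passing as deposited. Trib3, a pseudokinase that feeds back on ATF4, was at 5.21 and 4.65 FPKM in untreated cells and 6.41 and 9.18 with LPS (0.55, adjusted p = 0.108). Chac1, a glutathione-degrading enzyme, was at 5.72 and 5.55 and then 6.55 and 9.25 (0.41, adjusted p = 0.128). Sesn2, an inhibitor of mTORC1 signalling, was at 9.78 and 10.8 and then 11.7 and 15.2 (0.34, adjusted p = 0.136). In each of these genes LPS replicate 2 was the higher library, and under size factors the adjusted p was 0.032, 0.0374 and 0.0337. Atf5, a factor related to ATF4, differed by -0.06 (95% interval -0.41 to 0.29).

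Of the 5 enzymes of amino acid and one-carbon synthesis in the ATF4 program, Asns and Mthfd2 rose with LPS and Shmt2 fell. Asns (chr6:7675169-7693254, minus strand), asparagine synthetase, was at 56.5 and 53.4 FPKM in untreated cells, 84.0 and 76.9 with anti-CD36, 116 and 126 with LPS and 153 and 157 in the combination. The 4 groups kept that order without overlap. The LPS difference was 1.13 ± 0.12 (adjusted p = 0.00021). Mthfd2, a mitochondrial folate enzyme, rose by 0.65 ± 0.15 (adjusted p = 0.00868). Shmt2, the mitochondrial serine hydroxymethyltransferase that acts just before it, went from 199 and 200.3 FPKM to 118 and 122 (-0.73 ± 0.15, adjusted p = 0.00455). Psat1 and Phgdh, enzymes of serine synthesis, differed by -0.10 (95% interval -0.46 to 0.25) and -0.41 (-0.89 to 0.08).

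The promoter elements shown above can be set beside these differences. Of the 10 genes with either ER stress element, 4 fell with LPS and none rose, a share of falls near the 37.5% of all genes, with differences from -0.76 (Calr) to 0.32 (Hspa5) and a median of -0.41. Of the other 25 genes with a promoter window, 7 rose and 6 fell, with a median of 0.04. Under size factors the counts were 1 higher and 3 lower with a median of -0.18, against 11 higher and 3 lower with a median of 0.22. Under quantile normalization they were 0 and 6 with a median of -0.5, against 9 and 7 with a median of 0.25. The 4 genes with TGATGNAA had 1 rise (Asns), 1 fall (Herpud1) and 2 genes that did not pass (Chac1 and Trib3). The genes with an element are largely the chaperones, so the element and the role cannot be told apart in these counts.

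**Figure D3:**
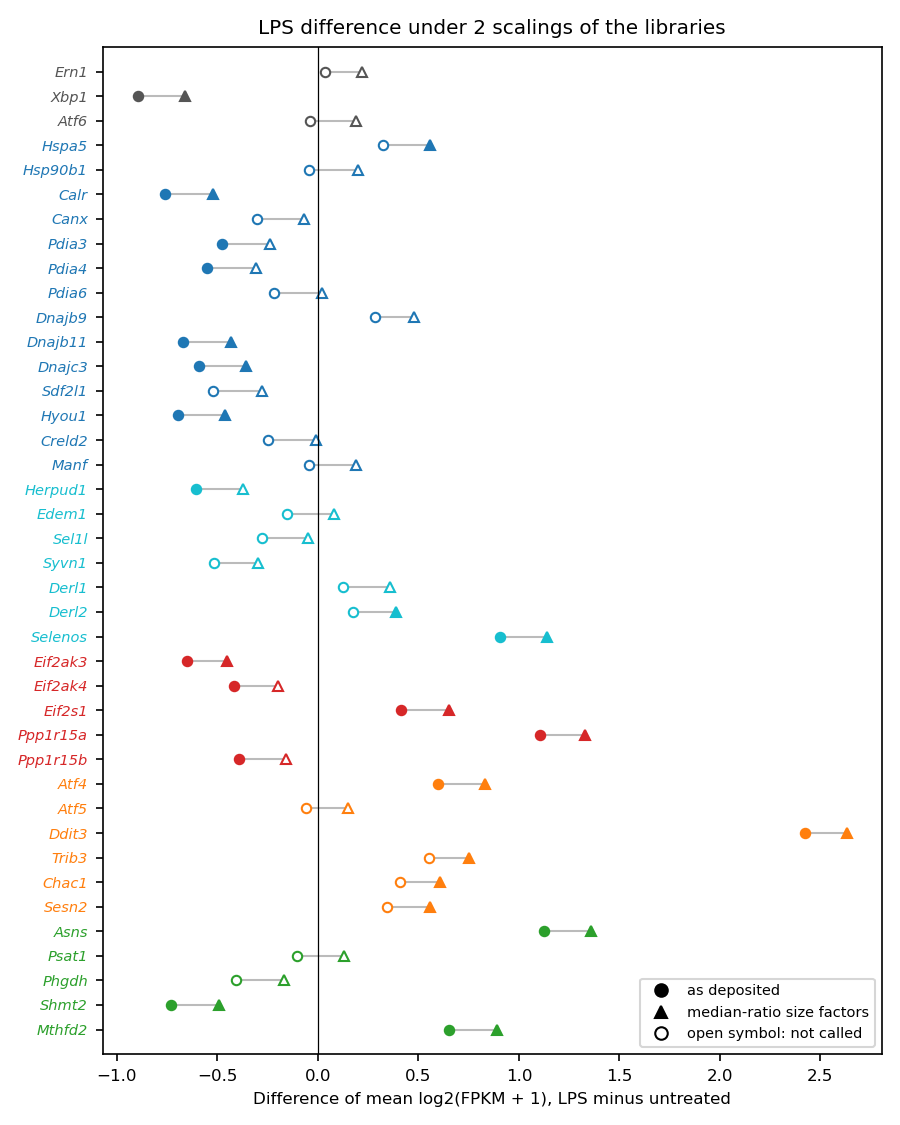
LPS minus untreated difference of mean log2(FPKM + 1) for the 40 genes with FPKM as deposited (circles) and after median-ratio size factors (triangles), joined by a line and coloured by role. Filled symbols passed the test. Every gene moves to the right under size factors, and Hspa5, Derl2, Trib3, Chac1 and Sesn2 are called under size factors and not as deposited.

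With anti-CD36 antibodies alone, Ern1, Hyou1, Ppp1r15b, Sel1l, Edem1, Eif2ak3 and Atf6 fell, and Eif2s1 and Asns rose. This made 2 genes higher (5%) and 7 lower (17.5%), where 3.04% of all genes were called higher and 10.6% lower. Ern1 (chr11:106394650-106487852, minus strand) was at 3.57 and 3.68 FPKM in untreated cells, 1.80 and 1.39 with anti-CD36, 3.80 and 3.68 with LPS and 2.50 and 2.52 in the combination. Both groups given the antibodies lay below both that were not. The anti-CD36 difference was -0.84 ± 0.11 (limma adjusted p = 0.013). Atf6 was at 23.5 and 26.1 FPKM in untreated cells and 19.4 and 16.97 with anti-CD36 (-0.43 ± 0.12, adjusted p = 0.0499), and Eif2ak3 at 4.20 and 3.58 with anti-CD36 (-0.46 ± 0.11, adjusted p = 0.0332). The genes of all 3 ER sensors were thus called lower as deposited. The call passed in 16 of 19 alternatives for Ern1, 8 of 19 for Eif2ak3 and 4 of 20 for Atf6, and those of Eif2ak3 and Atf6 were lost under size factors, quantile normalization and removal of the length trend.

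Among other members, Hyou1 differed by -0.78 ± 0.10 with anti-CD36 (adjusted p = 0.0136), Ppp1r15b by -0.76 ± 0.14 (adjusted p = 0.0194), Sel1l by -0.71 ± 0.13 (adjusted p = 0.0188) and Edem1 by -0.48 ± 0.12 (adjusted p = 0.0414). Eif2s1 rose by 0.55 ± 0.13 (adjusted p = 0.035), from 39.2 and 40.3 FPKM to 54.0 and 63.5, and Asns by 0.54 ± 0.12 (adjusted p = 0.0273). Ddit3 differed by 0.03 (95% interval -0.25 to 0.31), Hspa5 by 0.03 (-0.32 to 0.39) and Atf4 by -0.21 (-0.71 to 0.29). Sesn2 at -0.62 (adjusted p = 0.0577) and Manf at 0.38 (adjusted p = 0.0702) lay just outside the threshold.

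Gene length moved with the anti-CD36 difference. Across the 10043 tested genes with a known exon length, the difference and the length had a Spearman rho of -0.445, and across the 40 members -0.349. The points share the same 4 libraries. The 7 members that fell have exon lengths of 5594 to 9231 bp, with a median of 7230 bp, against a median of 3139 bp for the other 33. With a length trend removed from each library, 1 member was called higher and 4 lower, beside 389 higher and 350 lower among all genes. As deposited, the counts over all genes were 313 and 1092. In a fit on the untreated and anti-CD36 libraries alone, limma called no member and no other gene. There, 10 members and 2017 of all genes had an unadjusted p under 0.05. The calls were also lost without untreated replicate 1 or 2, across the whole table and not only among the members. None of the 9 members' calls with anti-CD36 passed in every alternative tried for them. The members' median difference was -0.06 with all libraries, -0.05 without untreated replicate 1 and -0.08 without untreated replicate 2. Without anti-CD36 replicate 1, the library with the high mitochondrial share, it was -0.06, against -0.04 over all genes. Without anti-CD36 replicate 2 it was -0.14, as over all genes.

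**Figure D4:**
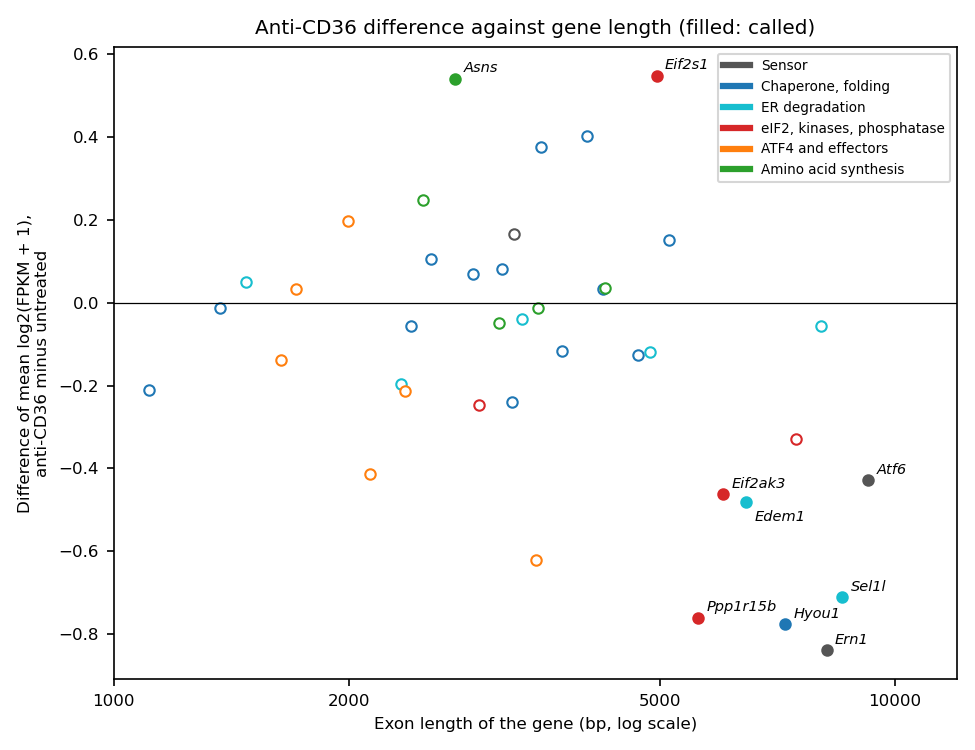
Anti-CD36 minus untreated difference of mean log2(FPKM + 1) against the exon length of each of the 40 genes (bp, log axis), coloured by role, with filled and named points for called genes. All 7 genes that fell are longer than 5000 bp. The chaperone genes of shorter length lie on both sides of 0, from -0.24 (Dnajb11) to 0.40 (Hsp90b1).

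In the combination, Ddit3, Asns and Selenos had the largest rises against untreated cells, and Hyou1, Herpud1 and Eif2ak3 had the largest falls. This comparison shares its untreated libraries with those above. Of the 40 genes, 6 were called higher (15%) and 18 lower (45%), where 17.3% of all genes were called higher and 41.8% lower. The IRE1, XBP1 and ATF6 arm had 1 higher and 14 lower of 24 as deposited, and 2 higher and 5 lower under size factors. Under quantile normalization this arm had 2 higher and 16 lower. The PERK and ATF4 arm had 5 higher and 4 lower of 16, 5 higher and 3 lower under size factors, and 4 and 5 under quantile normalization. Without untreated replicate 2, or without combination replicate 1, 4 members were called higher and 10 lower. Length moved with this difference as well (Spearman rho -0.319 across genes and -0.365 across the members, which share these libraries), with a median exon length of 5000 bp in the members that fell and 2836 bp in the others. The genes that rose were Ddit3 (1.89 ± 0.12), Asns (1.48 ± 0.12), Selenos (1.07 ± 0.13), Eif2s1 (0.67 ± 0.13), Ppp1r15a (0.46 ± 0.14) and Mthfd2 (0.42 ± 0.15). Adjusted p-values of these ran from 1.9e-05 for Ddit3 to 0.046 for Mthfd2. Asns in the combination was 2.82 times its untreated mean.

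The falls were led by Hyou1 (-1.03 ± 0.10, adjusted p = 0.00014) and Herpud1 (-1.002 ± 0.13, adjusted p = 0.00056). The kinase gene Eif2ak3 followed at -0.89 ± 0.11 (adjusted p = 0.00033), then Ppp1r15b at -0.79 ± 0.14, Xbp1 at -0.78 ± 0.12 and Eif2ak4 at -0.73 ± 0.11. The 3 sensors and factors, Ern1, Xbp1 and Atf6, were all lower. Ern1 at -0.40 and Atf6 at -0.46 turned to 0.05 and 0.01 with the length trend removed. Syvn1, Sel1l, Edem1 and Canx were called lower here at -0.61, -0.59, -0.56 and -0.52, and each lost the call under size factors. Hspa5 differed by -0.00 as deposited (95% interval -0.35 to 0.35) and by 0.29 under size factors, and was called lower under quantile normalization at -0.66 (adjusted p = 0.00649). Calls of 12 genes passed in every alternative tried for them, 4 higher (Asns, Ddit3, Eif2s1 and Selenos) and 8 lower (Dnajb11, Dnajc3, Eif2ak3, Eif2ak4, Herpud1, Hyou1, Ppp1r15b and Xbp1).

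The direct comparison of the combination with LPS asks what the antibodies changed in LPS-treated cells. No member passed limma's test, in either direction, where 0.36% of all genes were called higher and 1.42% lower. At an unadjusted p under 0.05 there were 2 members higher and 10 lower, beside 604 higher and 1401 lower among all 10289 genes. Differences were below 0 for 30 of the 40 genes and for 5479 of all 10289, with medians of -0.17 and -0.02. Under size factors, 13 of 24 genes of the IRE1, XBP1 and ATF6 arm and 10 of 16 of the PERK and ATF4 arm were below 0, and the chaperones went from 11 of 14 to 7 of 14. All 6 genes of the group of Atf4 and its effectors were below 0, from -0.54 to -0.03, as deposited, and 5 of 6 under size factors. In a fit on the 4 libraries compared, 2 members were called higher and 14 lower, beside 886 higher and 1498 lower among all genes. The anti-CD36 libraries enter the shared spread only. Leaving either of them out therefore cannot move the members' median difference of -0.17, and says nothing on its stability. It did change which members were called.

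Ppp1r15a and Ddit3 had the lowest values in that comparison. Ppp1r15a was 0.62 times its LPS mean in the combination (-0.65, 95% interval -0.98 to -0.32, adjusted p = 0.0689), and Ddit3 0.68 times (-0.54, -0.81 to -0.26, adjusted p = 0.0708). In both genes the 2 combination libraries lay below the 2 LPS libraries and above the untreated ones. Ern1 differed by -0.44 (adjusted p = 0.0868), Atf6 by -0.42 (adjusted p = 0.109) and Edem1 by -0.40 (adjusted p = 0.133). Herpud1 differed by -0.40, Ppp1r15b by -0.39, Hyou1 by -0.33, Eif2ak4 by -0.32 and Sel1l by -0.31, with adjusted p of 0.14 to 0.241. Length moved with this difference too, with a Spearman rho of -0.476 across genes and -0.195 across the members, which share these libraries. With the length trend removed, Ern1 was at -0.27, Atf6 at -0.24, Edem1 at -0.30 and Sel1l at -0.14. Ppp1r15a was then at -0.72 and Ddit3 at -0.66. Ddit3 was the 1 member called in that setting (limma adjusted p = 0.0485), beside 32 higher and 96 lower among all genes. The 2 higher genes were synthesis enzymes, Phgdh at 0.58 (adjusted p = 0.191) and Asns at 0.35 (adjusted p = 0.162). Phgdh, the first enzyme of serine synthesis, was at 127 and 128 FPKM with LPS and 201 and 180.4 in the combination, and at 190.2 and 151 in untreated cells. For Xbp1 the interval of the difference was -0.17 to 0.40, for Calr -0.23 to 0.50 and for Dnajb11 -0.26 to 0.25.

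**Figure D5:**
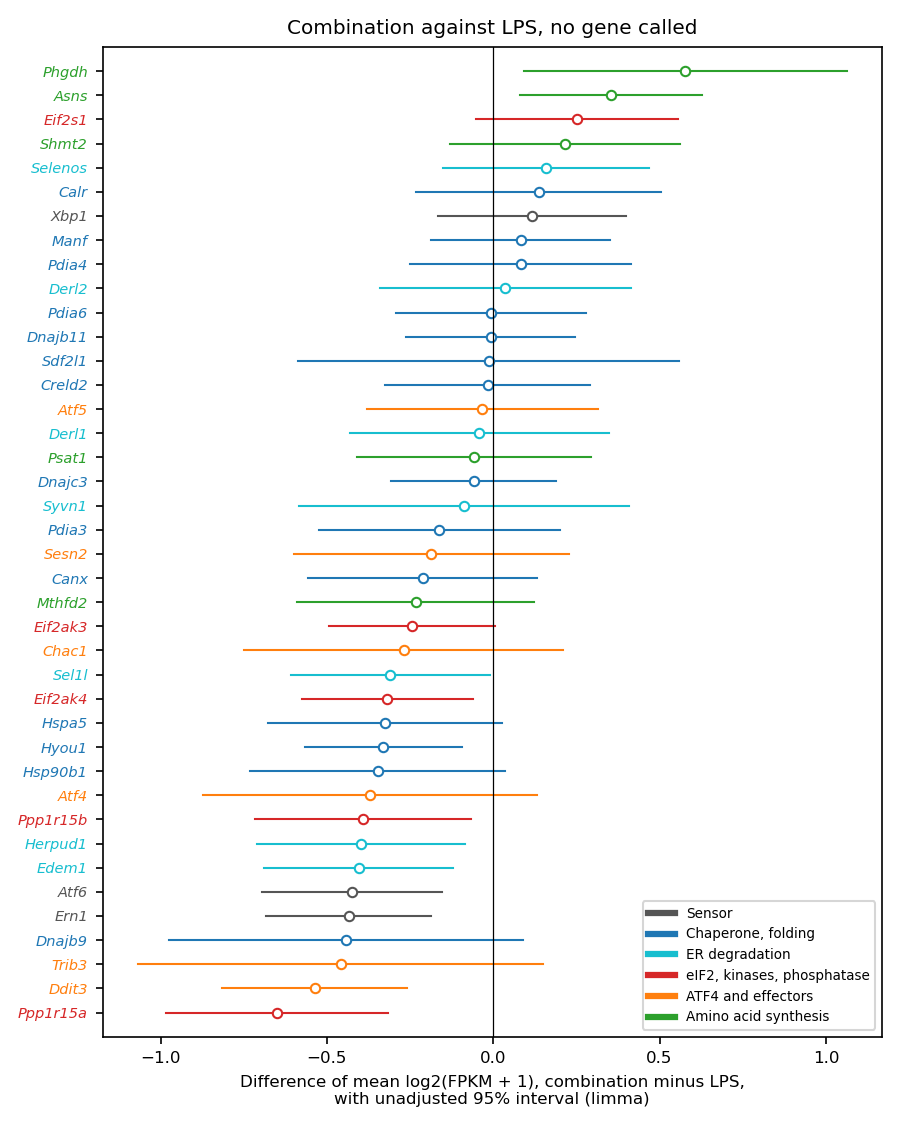
Combination minus LPS difference of mean log2(FPKM + 1) for the 40 genes, sorted, with unadjusted 95% intervals from limma and colours by role. No gene passed the adjusted test, 10 intervals lie wholly below 0 and 2 (Phgdh and Asns) wholly above.

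The interaction tested whether the LPS difference was the same with and without the antibodies. No member passed limma's test, and 0.00972% of all genes did, which is 1 gene. At an unadjusted p under 0.05 there were 2 members above 0 and 2 below, beside 871 above and 525 below among all 10289 genes. Hyou1 (0.45, 95% interval 0.11 to 0.78) and Ern1 (0.40, 0.05 to 0.75) were above, and Hsp90b1 (-0.75, -1.29 to -0.21) and Ddit3 (-0.57, -0.96 to -0.17) below, with adjusted p of 0.278 to 0.331. For Hyou1, LPS took 84.7 to 51.9 FPKM without the antibodies and 49.1 to 41.1 with them, by group means. For Hsp90b1 the means went from 182 to 176 without them and from 239 to 138 with them. The interval ran from -0.87 to 0.55 for Atf4 and from -0.91 to 0.82 for Trib3, so sizable differences in either direction are within these bounds.

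Lists of other genes of these pathways, outside the 40, held 122 tested genes. With LPS, 25 rose (20.5%) and 31 fell (25.4%), where 17% and 37.5% of all genes did. With anti-CD36, 2 rose (1.64%) and 10 fell (8.2%), where 3.04% and 10.6% did. In the combination, 28 rose (23%) and 38 fell (31.1%), where 17.3% and 41.8% did. Among 10 ATF4 targets in transcription and signalling, 4 rose with LPS and 2 fell. Sqstm1, an autophagy receptor, rose by 2.67 ± 0.14 (adjusted p = 1.2e-05), the stress factor Atf3 by 2.61 ± 0.20 (adjusted p = 5e-05) and Nupr1, a stress-induced nuclear protein, by 1.95 ± 0.15. Among 17 genes of amino acid transport and metabolism, 5 rose and 4 fell. Cth, the last enzyme of cysteine synthesis, went from 1.20 ± 0.23 FPKM to 16.3 ± 0.53 (SD, n = 2) and had the largest difference of all 122, at 2.98. The cystine carrier Slc7a11 rose by 1.28 ± 0.13, and the cytosolic enzyme Shmt1 fell by 1.12. Of 13 tRNA synthetase and related genes, 5 rose (Nars by 0.84) and 2 fell (Xpot, a tRNA exporter, at -1.05).

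On the ER side, 4 of 39 further folding, glycosylation and translocation genes rose with LPS and 12 fell, among them Erp29 (-1.21 ± 0.20) and P4hb (-0.73 ± 0.16), a disulfide isomerase, while Sec61g (1.76 ± 0.49) rose. Of 18 further degradation genes, 1 rose and 4 fell, with Os9 at -0.88. Of 12 sensors, proteases and death genes, 2 rose and 4 fell. The death gene Bbc3 rose by 1.46 ± 0.16, and Mbtps1, a protease that cuts ATF6, fell by 0.99. Of 13 genes of eIF2 and its exchange factor eIF2B, 4 rose and 3 fell. In the order given, the falls were 30.8%, 22.2%, 33.3% and 23.1% of these lists, where 37.5% of all genes fell. The rises were 10.3%, 5.56%, 16.7% and 30.8%, where 17% of all genes rose. Eif2s2 rose by 1.07 with LPS, and it rose by 0.94 with anti-CD36 alone (adjusted p = 0.0138). Between the combination and LPS, 2 of the 122 passed, both lower (1.64%, near the 1.42% of all genes called lower). Ero1a, the oxidase that recharges the disulfide isomerases, was at 110.4 ± 10.5 FPKM with LPS and 44.6 ± 0.62 in the combination (-1.28, adjusted p = 0.0116). Slc7a1, a carrier of cationic amino acids, was at 16.4 ± 1.01 and 9.68 ± 0.48 (-0.70, adjusted p = 0.0274).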

How the data were processed

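Total RNA of RAW264.7 cells was taken with Trizol and made into Illumina libraries, per the labels' protocols. The sample descriptions also mention 10x Genomics, but the table holds a single value per gene and library and was treated as bulk data. The authors deposited FPKM values of all libraries in 1 table. Alignment software and builds are known from the submitters' processing notes, which list HISAT2 2.0.5, hg38 and mm10. The role of hg38, the counter, annotation and strand use are not given in the sources used here. No gene of the table was at 0 in any library (lowest value 0.00582), so a gene at 0 in any library was not analysed here.

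The filter kept genes that reached an FPKM of 1 in 2 or more libraries. A model of 4 group means was fitted to log2(FPKM + 1) of all 8 libraries with limma 3.58.1 in R 4.3.3 (empirical Bayes with a trend, 4 residual and 3.46 prior degrees of freedom). A pseudocount of 1 understates changes of low genes. The fit was tested on simulated data. Depth was recovered from the low values with GENCODE M21 exon lengths, and 86.2% to 89.0% of the values of 400 low genes came out whole within 0.02 reads. A count of 3 reads over 2000 bp equals 0.0209 to 0.0313 FPKM, for counting error only. Gene positions are from GENCODE M21 (GRCm38) and promoters from RefSeq. Exons of 14 members overlap those of another gene, over 10% of the gene in Hsp90b1 and Ppp1r15b.

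The members, roles, lists and motifs were chosen with earlier results of these data known. All members are named, and per list up to 3 genes with the largest absolute LPS difference and up to 2 with the largest difference between the combination and LPS. Alternatives changed the pseudocount, filter, scaling, length trend, libraries in the fit, variance trend and replicate block, or left out each library in turn.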

Additional observations from a re-analysis of the deposited data

How the results depend on the processing

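The numbers of members called depended on scaling and on single libraries, as did the numbers called over all genes. With LPS against untreated cells, 7 members were called higher and 12 lower, where 1754 and 3860 of all genes were. Median-ratio size factors gave 12 and 7 members, beside 2666 and 2708 of all genes. With the length trend removed there were 12 and 8, beside 2766 and 2691. Quantile normalization gave 9 and 14, beside 2459 and 3015. Scaling to the summed FPKM of non-mitochondrial genes, an alternative chosen after seeing the data, gave 5 and 20, beside 1210 and 4956. Leaving out 1 library gave 4 to 9 higher and 7 to 16 lower. With anti-CD36, 2 higher and 7 lower became 2 and 4 under size factors, 1 and 4 with the length trend removed, 1 and 5 under quantile normalization, 2 and 4 at a mean FPKM of at least 5, 0 and 0 when the model held only the groups compared, 0 and 6 under non-mitochondrial scaling, and 0 to 4 higher and 0 to 11 lower without 1 library. Over all genes, 313 higher and 1092 lower with anti-CD36 became 430 and 586 under size factors and 389 and 350 without the length trend. Quantile normalization gave 465 and 641, a mean FPKM of at least 5 gave 214 and 597, and non-mitochondrial scaling gave 138 and 1304. In the combination, 6 members higher and 18 lower became 7 and 8 under size factors and 7 and 12 with the length trend removed. They became 6 and 21 under quantile normalization and 4 and 23 under non-mitochondrial scaling. Over all genes, 1776 and 4300 became 2957 and 2915, 2790 and 2724, 2580 and 3105, and 1109 and 5693 in the same order. The members' median difference there ran from -0.35 to -0.31 without 1 library. Ern1 and Atf6 reversed there with the length trend removed, to 0.050 and 0.008. Against LPS, the combination had 2 higher and 14 lower when the model held only the groups compared, 0 and 1 with the length trend removed, and 0 to 2 higher and 0 to 10 lower without 1 library. The interaction had 0 or 1 lower without 1 library. The cause was not tested for any of these shifts. Of single calls, 309 of 360 values held with LPS, 107 of 178 with anti-CD36 and 389 of 454 in the combination. A fit that leaves out a library leaves that group with 1 sample, which is assumed to vary like the others.

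Deviations from the group means correlated at -0.645 (untreated with anti-CD36) to 0.530 (untreated with the combination), so replicate numbers did not line up the groups in 1 consistent way. Whether libraries were paired under other numbers or shared a batch was not tested. A replicate block gave 6 higher and 10 lower with LPS, 0 and 4 with anti-CD36, 5 and 17 in the combination and 0 against LPS and in the interaction. With the anti-CD36 numbers crossed, an alternative chosen after seeing the data, the block gave 2 and 7 with anti-CD36. Over all genes, it gave 163 higher and 700 lower with anti-CD36 as numbered, and 485 and 1437 when crossed. Each member had at least 251 reads in every library, and how much of the spread comes from counting was not tested.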
